A study of Mus musculus with 12 samples.

Results

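The data described here are the signals of 9 chemokine genes in C2C12 cells, an immortalized mouse myoblast line, after *Zbed6*-silencing. The genes are *Cxcl12*, *Cxcl13*, *Cxcl1*, *Cxcl5*, *Cxcl14*, *Ccl2*, *Ccl7*, *Ccl8* and *Cx3cl1*, and they were taken by gene symbol from the platform annotation, which gave them 14 of the 25697 probes on the array and 9 of its 16593 gene symbols. They were selected on earlier results of the same arrays, their signals and the differences between groups, as chemokines that these myoblasts express, so their levels are given as a description. The study had 4 groups of 3 biological replicates each, with 1 array per replicate. C2C12 cells of passages 10 to 18, kept in medium with 10% fetal bovine serum, were reverse transfected with Lipofectamine 2000 and either a pool of *Zbed6* siRNAs (silenced cells) or a pool of scrambled siRNAs (control cells), and total RNA was taken after 48 h or after 96 h. Transfection was thus common to all 4 groups, no untransfected cells were analysed here, and all samples came from 1 cell line. The arrays were of the Illumina MouseRef-8 v2 type, which read each transcript through one or more short bead-bound probes.

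Chemokines are small secreted proteins that guide the migration of cells through G protein-coupled receptors on the target cell, and they are grouped as CXC, CC and CX3C by the spacing of their first cysteines. Many of them are induced by inflammatory cytokines through NF-kappaB and draw leukocytes into damaged muscle. *Cxcl12* differs from most in being expressed constitutively, and the *Cxcl12* receptor *Cxcr4* is carried by muscle progenitors. ZBED6, the silenced factor, is a DNA-binding protein that evolved from a transposase and is known for repressing *Igf2*.

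ZBED6 is known to bind DNA that holds the core GCTCG, so the RefSeq sequences around the start sites of the members were searched for this core on both strands. In the RefSeq promoter table (GRCm38.p6), which holds 250 bases before and 50 bases after each start, 6 of the 9 members had an entry, and the core occurred in 3 of them, *Cxcl1*, *Cxcl12* and *Cxcl13*. The same core occurred in 29.8% of all 32851 windows of that length. These 3 windows are shown because they held the core and their genes differed between silenced and control cells at 96 h. In silenced cells *Cxcl13* was then higher, and *Cxcl12* and *Cxcl1* were lower. The windows of *Ccl8*, *Cxcl14* and *Cx3cl1* held no core, although *Cx3cl1* differed at 48 h. A link between the core and the differences was not tested. All 3 genes shown lie on the plus strand. The core, or its reverse complement CGAGC, is in capitals, and each window starts 250 bases before the start site and ends with the first 30 transcribed bases.
Cxcl12, chr6:117168285-117168564: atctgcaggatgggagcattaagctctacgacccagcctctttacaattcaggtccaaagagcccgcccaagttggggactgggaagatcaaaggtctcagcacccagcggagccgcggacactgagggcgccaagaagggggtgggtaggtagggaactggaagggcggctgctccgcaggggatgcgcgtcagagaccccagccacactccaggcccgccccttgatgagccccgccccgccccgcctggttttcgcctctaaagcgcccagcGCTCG
Cxcl13, chr5:95956689-95956968: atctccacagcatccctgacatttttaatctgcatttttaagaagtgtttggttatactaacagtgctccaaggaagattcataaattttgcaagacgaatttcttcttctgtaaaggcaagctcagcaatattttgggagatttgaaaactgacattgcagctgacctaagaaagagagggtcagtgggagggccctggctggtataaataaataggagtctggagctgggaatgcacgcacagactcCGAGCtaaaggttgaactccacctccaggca
Cxcl1, chr5:90890995-90891274: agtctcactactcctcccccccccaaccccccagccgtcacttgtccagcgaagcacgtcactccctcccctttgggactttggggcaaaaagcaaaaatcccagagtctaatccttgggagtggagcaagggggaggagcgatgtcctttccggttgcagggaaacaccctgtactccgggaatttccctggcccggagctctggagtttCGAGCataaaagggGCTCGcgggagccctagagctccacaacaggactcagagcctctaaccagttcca
The *Cxcl12* core lay at positions 26 to 30 of the transcript, the *Cxcl13* core on the minus strand at -1 to 4, and the *Cxcl1* cores at -39 to -35 on the minus strand and at -25 to -21 on the plus strand. Of these 6 members, only *Cxcl1* also held the kappa B consensus, as GGGAATTTCC at -71 to -62 with an overlapping minus-strand match at -70 to -61, whereas 8.46% of all windows held that consensus on either strand. Such a match describes the letters of the window and not a bound site. *Ccl2*, *Ccl7* and *Cxcl5* were not in the promoter table.

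The arrays were alike in quality. Between 12078 and 12558 probes (47% to 48.9%) were detected per array, which means that their signal stood above the negative control beads at a detection p under 0.05, and the median signal before normalization was 76.5 to 90.8. For *Igf2*, the known ZBED6 target, silenced minus control cells gave 0.35 on the log2 scale at 48 h. This did not pass (SE 0.11, limma adjusted p = 0.073). At 96 h *Igf2* was higher in silenced cells by 0.45 (SE 0.081, limma adjusted p = 0.023). No probe on the array was named *Zbed6*, so the silencing itself was not read here. The 7 myoblast marker genes kept by the detection filter included *Myod1*, *Myog*, *Des* and *Chrna1* on all 12 arrays, while *Pax7* and *Myf5* were detected on none. At 48 h the normalized signals of all 9 markers summed to 60468 to 62298 in silenced cells and 61467 to 65224 in control cells. At 96 h they summed to 62815 to 66243 in silenced cells and 55451 to 59659 in control cells. These did not overlap, as for 32.1% of all single genes at 96 h. Most of each sum came from *Chrna1* and *Des*. At 96 h *Chrna1* gave 0.14 (limma adjusted p = 0.27) and *Des* gave 0.17 (limma adjusted p = 0.28). *Msc* was higher in silenced cells at 48 h (0.60, limma adjusted p = 0.017) and at 96 h (0.45, limma adjusted p = 0.032). So was *Itga7* at 96 h (0.38, limma adjusted p = 0.036), and the other kept markers passed on neither day. In RNA from whole cultures, fewer cells that express a gene and less of its RNA per cell cannot be told apart.

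Not all of the 9 genes were detected. *Cxcl12*, *Cxcl13*, *Cxcl1*, *Ccl7* and *Cx3cl1* were detected on all 12 arrays. *Ccl8* was detected on 3 arrays, the smallest number that the filter accepted. *Ccl2* was detected on 2 arrays and fell just outside it, and *Cxcl5* and *Cxcl14* were detected on none. Of the 14 probes 8 were kept, and these stood for 6 genes. For *Ccl2*, *Cxcl5* and *Cxcl14* the arrays therefore did not bear out the description as expressed chemokines. All values below are log2 normalized signals unless stated otherwise, each probe has its own scale, and levels of different genes are not set against each other.

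Markers of other cell types were read because leukocytes, endothelial cells and stromal cells also make chemokines, each list as the sum of its normalized signals. Of 12 leukocyte markers on the array, *Ptprc*, *Adgre1*, *Itgam*, *Lyz2*, *Tyrobp* and 5 more were detected on none of the 12 arrays, *Cd3e* on all 12, and *Coro1a* on 3. The summed signal of the 12 was 346.8 to 371.3 in silenced cells and 331.1 to 338.2 in control cells at 48 h. These did not overlap, as for 34.1% of all single genes at 48 h. At 96 h it was 330.9 to 344.7 in silenced cells and 334.6 to 339.1 in control cells. As most of the 12 were not detected, these sums are largely background signal, and neither *Cd3e* nor *Coro1a* passed on either day. Of 10 fibroblast markers 6 were kept, with *Thy1*, *Lum*, *Tcf21* and *Fap* detected on no array. Their summed signal was 7940 to 8857 in silenced cells and 8179 to 8640 in control cells at 48 h. At 96 h it was 6018 to 6534 in silenced cells, against 7037 to 7722 in control cells, on the arrays in which *Cxcl12*, *Cxcl1* and *Ccl7* were lower in silenced cells, as given next. The sums at 96 h did not overlap, as for 32.1% of all single genes on that day. The members of this list did not move as one. At 96 h *Pdgfra* was lower in silenced cells (-0.61, limma adjusted p = 0.034), and the bright *Col3a1* (-0.31, limma adjusted p = 0.095) and *Dcn* (-0.17, limma adjusted p = 0.41), like *Col1a1* (0.21, limma adjusted p = 0.29), *Pdgfrb* (-0.03, limma adjusted p = 0.89) and *Dpt* (detected in neither group at 96 h), did not pass. At 48 h *Col1a1* was lower (-0.51, limma adjusted p = 0.019). The dim *Pdgfra* had 62.8 to 177.5 before normalization and was detected on 9 arrays, with none of the silenced arrays at 48 h among them. Of 9 endothelial markers *Pecam1*, *Cdh5*, *Tek*, *Kdr*, *Tie1*, *Emcn* and *Esam* were detected on no array, *Vwf* on 3 and *Eng* on 11. *Eng* was lower in silenced cells at 48 h (-0.65, limma adjusted p = 0.022), as was *Cx3cl1*, and gave -0.34 (limma adjusted p = 0.055) at 96 h. The summed signal of the 9 was 272.4 to 293.9 in silenced cells and 293.6 to 320.8 in control cells at 48 h, and 285.3 to 304.2 in silenced cells and 297.9 to 315.0 in control cells at 96 h. The part of these markers in the chemokine differences was not tested.

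*Cxcl12*, the constitutive ligand of *Cxcr4*, was lower in silenced cells at 96 h and rose with time in control cells. At 48 h it had 8.77, 8.53 and 8.69 in silenced cells, against 8.41, 8.55 and 8.39 in control cells. At 96 h it had 8.67, 9.003 and 8.93 in silenced cells, against 9.84, 9.45 and 9.54 in control cells. The groups overlapped at 48 h, while at 96 h all silenced arrays lay below all control arrays. The difference was 0.21 (SE 0.099, limma adjusted p = 0.20) at 48 h. At 96 h *Cxcl12* was lower in silenced cells by 0.74 on the log2 scale, or 1.67-fold (SE 0.13, limma adjusted p = 0.020). In control cells it rose between 48 h and 96 h by 1.16, or 2.23-fold (SE 0.12, limma adjusted p = 1.7e-05), and all control arrays at 96 h lay above those at 48 h. In silenced cells the same interval gave 0.20 (limma adjusted p = 0.22), with overlapping arrays. The silencing effect at 96 h minus that at 48 h was -0.96 (SE 0.17, limma adjusted p = 0.015), which was a test of the difference between the days. The 96 h call was lost without control replicate 1 (difference -0.63, limma adjusted p = 0.062) or without silenced replicate 1 (-0.64, limma adjusted p = 0.056), while the difference between the days passed the test with each of the 12 arrays left out in turn (limma adjusted p = 0.020 to 0.040).

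**Figure D1:**
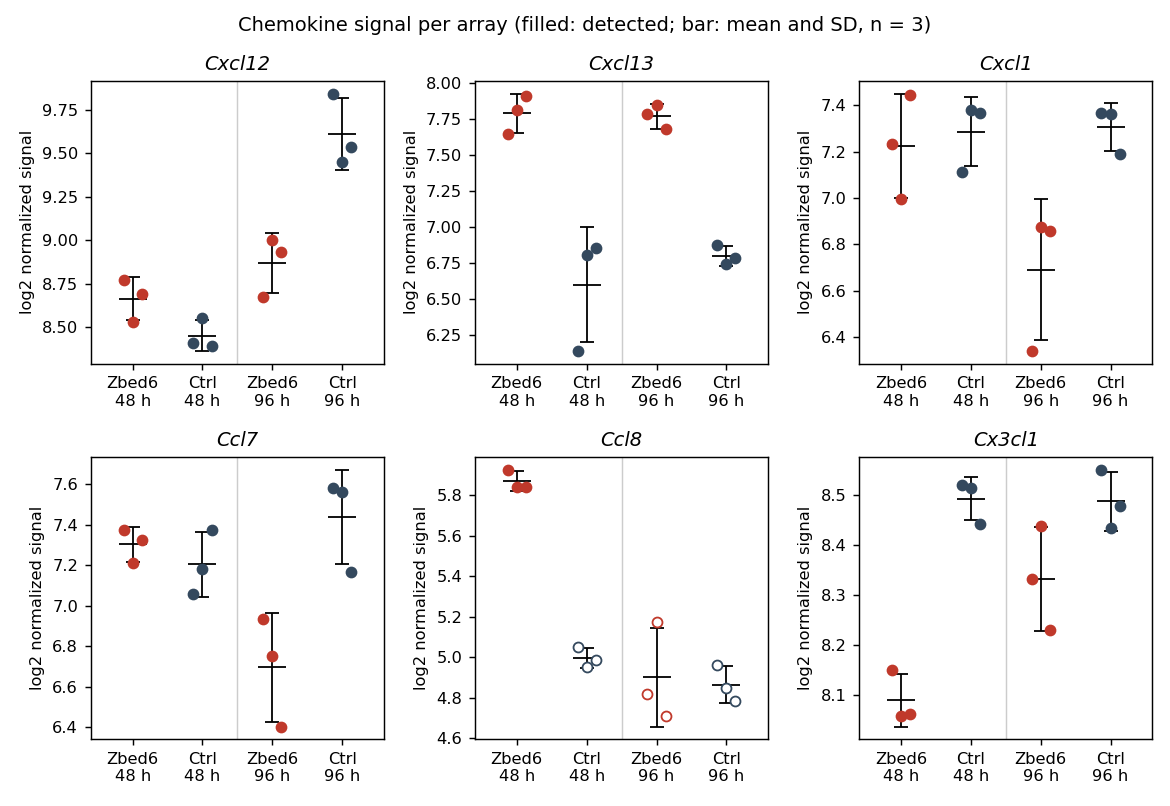
Log2 normalized signal (vertical axis, a scale of its own for each gene) of the 6 kept chemokines in silenced (Zbed6) and control (Ctrl) cells at 48 h and 96 h. Each point is an array, filled where the probe was detected, and the line and bar give the mean and SD of 3 arrays. *Cxcl12* in control cells at 96 h (9.45 to 9.84) stands above the other 3 groups, and *Ccl8* is detected on the 3 silenced arrays at 48 h only.

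*Cxcl12* was represented by 5 probes, of which 3 were detected on all 12 arrays and 2 on none. The brightest, called A here, gave the values above. Probe B had 7.51, 6.81 and 7.15 in silenced cells against 7.46, 7.28 and 7.52 in control cells at 48 h, and the groups overlapped. At 96 h probe B had 6.88, 7.12 and 7.16 in silenced cells against 8.04, 8.13 and 8.12 in control cells, with every silenced array lower. Probe C had 6.74, 6.40 and 6.47 in silenced cells against 6.99, 6.77 and 6.82 in control cells at 48 h, and 5.97, 6.50 and 6.76 in silenced cells against 7.43, 7.32 and 7.44 in control cells at 96 h. The silenced arrays of probe C lay below the control arrays on both days. Tested over all 13095 kept probes, the 96 h difference passed for all 3, at -0.74 for A (limma adjusted p = 0.023), -1.04 for B (limma adjusted p = 0.0043) and -0.99 for C (limma adjusted p = 0.023), where 5.76% of kept probes passed. The increase with time in control cells also passed for each, at 1.16, 0.67 (limma adjusted p = 0.0041) and 0.54 (limma adjusted p = 0.023), and 32.2% of kept probes passed that comparison. At 48 h, where 6.93% of kept probes passed, none of the 3 did and they differed in sign, with 0.21 for A, -0.27 for B (limma adjusted p = 0.35) and -0.32 for C (limma adjusted p = 0.13). The difference between the days passed over all probes for A (limma adjusted p = 0.020), as for 2.93% of kept probes, and not for the other two, with -0.78 for B (limma adjusted p = 0.059) and -0.66 for C (limma adjusted p = 0.12).

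**Figure D2:**
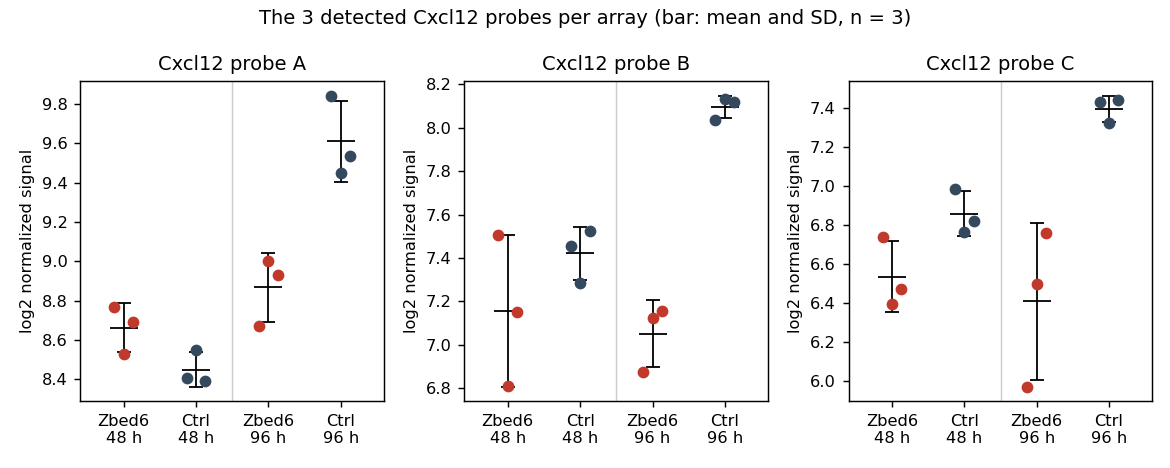
Log2 normalized signal of the 3 detected *Cxcl12* probes per array (points), with the mean and SD of 3 arrays, for silenced (Zbed6) and control (Ctrl) cells at each day. In all 3 panels the control arrays at 96 h are the highest, while at 48 h the silenced arrays of probe A lie around or above the control arrays and those of probe C lie below them.

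*Cxcl13*, which attracts B cells through *Cxcr5*, was higher in silenced cells on both days. It had 7.64, 7.81 and 7.91 in silenced cells at 48 h, against 6.14, 6.80 and 6.85 in control cells. It had 7.78, 7.84 and 7.68 in silenced cells at 96 h, against 6.87, 6.74 and 6.78 in control cells. The lowest silenced array lay above the highest control array on each day, and control replicate 1 at 48 h lay below the other control arrays. The 48 h difference was 1.19, or 2.28-fold, and is given without a test because this gene was known to be among the larger rises at that time. The 96 h arrays gave 0.97, or 1.96-fold (SE 0.084, limma adjusted p = 0.0038), and this call held with each of the 6 arrays left out (limma adjusted p = 0.0085 to 0.033). The effect at 96 h minus that at 48 h was -0.22 (SE 0.22). Between the days silenced cells gave -0.02 and control cells gave 0.20. These values draw on the same 48 h arrays, so they are given without a test as well.

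*Cxcl1*, a neutrophil attractant that signals through *Cxcr2*, was lower in silenced cells at 96 h. It had 7.23, 7.00 and 7.44 in silenced cells against 7.11, 7.38 and 7.37 in control cells at 48 h, where the groups overlapped (-0.06, limma adjusted p = 0.80). At 96 h it had 6.34, 6.88 and 6.86 in silenced cells, against 7.37, 7.36 and 7.19 in control cells, and all silenced arrays were lower. The 96 h difference was -0.61 (1.53-fold lower, SE 0.15, limma adjusted p = 0.043). In silenced cells *Cxcl1* fell by 0.53 between the days (limma adjusted p = 0.017), while control cells gave 0.02 (limma adjusted p = 0.93). That fall did not pass without silenced replicate 3 at 48 h (limma adjusted p = 0.074) or silenced replicate 1 at 96 h (limma adjusted p = 0.071). The difference between the days was -0.55 (SE 0.21, limma adjusted p = 0.14) and did not pass. The 96 h call was lost when any of the 6 arrays was left out (limma adjusted p = 0.053 to 0.13), with the difference then between -0.71 and -0.44.

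*Ccl7*, a monocyte attractant that acts through *Ccr2* and other CC receptors, had 7.37, 7.21 and 7.32 in silenced cells against 7.06, 7.18 and 7.37 in control cells at 48 h. At 96 h it had 6.93, 6.75 and 6.40 in silenced cells, against 7.58, 7.56 and 7.17 in control cells. The groups overlapped at 48 h (0.10, limma adjusted p = 0.59), and at 96 h the silenced arrays lay below the control arrays by 0.74, or 1.67-fold (SE 0.16, limma adjusted p = 0.033). In silenced cells *Ccl7* fell by 0.61 between 48 h and 96 h (limma adjusted p = 0.0069), and control cells gave 0.23 (limma adjusted p = 0.23). The effect differed between the days by -0.84 (SE 0.20, limma adjusted p = 0.039). The 96 h call was kept with 2 of the 6 arrays left out in turn and lost without control replicate 1 (limma adjusted p = 0.11), control replicate 2 (0.089), silenced replicate 2 (0.072) or silenced replicate 3 (0.058). The call on the difference between the days was kept without control replicate 3 at 48 h, control replicate 3 at 96 h or silenced replicate 1 at 96 h, and lost without any of the other 9 arrays (limma adjusted p = 0.051 to 0.094).

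*Ccl8*, in the mouse a ligand of *Ccr8*, was near background throughout. Its signal before normalization was 96.3, 105.6 and 115.5 in silenced cells at 48 h, against 75.0, 76.7 and 75.3 in control cells. On the log2 normalized scale the values were 5.93, 5.84 and 5.84 in silenced cells, against 5.05, 4.95 and 4.99 in control cells. Its detection p was between 0.0113 and 0.0125 on the silenced arrays at 48 h and 0.05 or above on the other 9 arrays, and no array reached a detection p under 0.01. With the control arrays not detected, *Ccl8* was at least 1.48-fold higher in silenced cells at 48 h, a bound set by the dimmest signal that counted as detected. As it passed the filter only through the silenced arrays at 48 h, it had to differ there, and its values are a description with no test. At 96 h it was detected in neither group, with 4.82, 5.17 and 4.71 in silenced cells against 4.96, 4.85 and 4.78 in control cells. In silenced cells it was at least 1.46-fold lower at 96 h than at 48 h, which the filter fixed in the same way.

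*Cx3cl1*, a membrane-anchored chemokine whose receptor is *Cx3cr1*, was lower in silenced cells at 48 h. It had 8.15, 8.06 and 8.06 in silenced cells at 48 h, against 8.52, 8.51 and 8.44 in control cells, without overlap. At 96 h it had 8.33, 8.44 and 8.23 in silenced cells, against 8.55, 8.43 and 8.48 in control cells, and one pair of arrays overlapped. The 48 h difference was -0.40, or 1.32-fold lower (SE 0.084, limma adjusted p = 0.023), and the 96 h difference was -0.16 (SE 0.087, limma adjusted p = 0.30). In silenced cells *Cx3cl1* rose by 0.24 between the days (limma adjusted p = 0.034), and control cells gave -0.01 (limma adjusted p = 0.97). The rise was lost without silenced replicate 2 or 3 at 48 h or silenced replicate 1 or 2 at 96 h (limma adjusted p = 0.078 to 0.14). The silencing effect was not shown to differ between the days (0.25, SE 0.11, limma adjusted p = 0.20). The 48 h call was kept when silenced replicate 1 was left out and lost when any other array of that day was (limma adjusted p = 0.058 to 0.077).

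**Figure D3:**
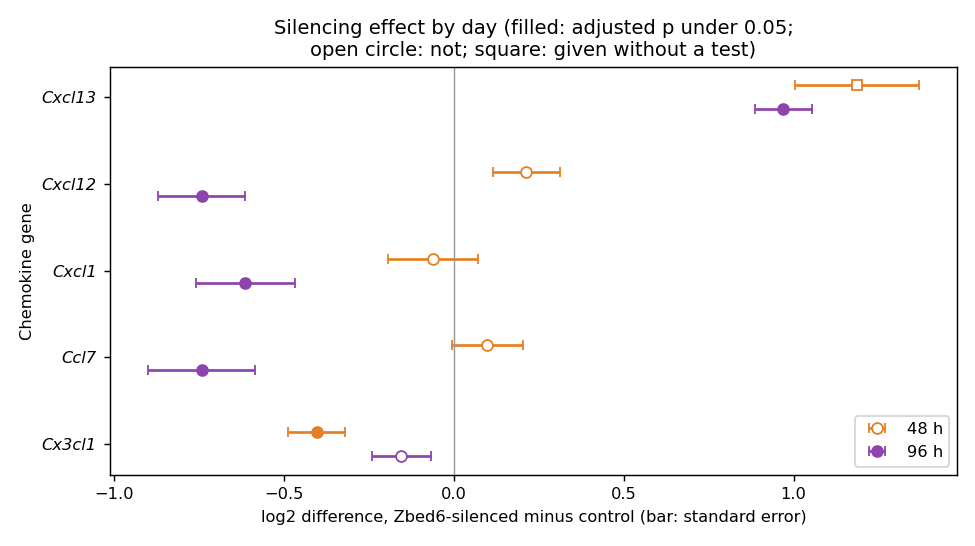
Log2 difference between silenced and control cells (horizontal axis, silenced minus control, bars are standard errors) for the 5 chemokines detected on all 12 arrays, at 48 h and 96 h. *Cxcl13* lies near 1 on both days (1.19 and 0.97), *Cxcl12*, *Cxcl1* and *Ccl7* lie between -0.74 and -0.61 at 96 h and nearer to 0 at 48 h, and *Cx3cl1* is at -0.40 at 48 h and -0.16 at 96 h.

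The 5 chemokines detected on all arrays were counted against all 8858 genes tested. At 48 h, leaving out *Cxcl13*, which was chosen with its difference at that time known, *Cx3cl1* was lower in silenced cells and the other 3 did not pass, where 10.2% of all genes passed (4.63% higher and 5.61% lower). At 96 h, 1 of the 5 was higher and 3 were lower, where 6.83% of all genes passed (3.44% higher and 3.39% lower). Between the days in silenced cells *Cxcl1* and *Ccl7* were lower and *Cx3cl1* higher at 96 h, where 28% of all genes passed (15.6% higher and 12.4% lower), and in control cells *Cxcl12* was higher, where 32.9% passed (17.7% higher and 15.2% lower). The effect of silencing differed between the days for *Cxcl12* and *Ccl7*, both with a lower log2 difference of silenced minus control cells at 96 h. Of all genes 4.49% passed that test (2.38% positive and 2.11% negative). *Cxcl13* was left out of the comparisons between the days as well. Arrays of the 2 siRNAs did not overlap for *Cx3cl1* at 48 h (nor for *Cxcl13*, chosen on it), as for 34.1% of all genes, and for *Cxcl13*, *Cxcl12*, *Cxcl1* and *Ccl7* at 96 h, as for 32.1%. The members were chosen with such results known, so these counts are a description. The comparisons share arrays, since each group enters 3 of them.

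The 3 dim genes gave no difference that could be read. *Cxcl5*, a ligand of *Cxcr2*, had signals before normalization of 51.0 to 80.9 over the 12 arrays and a lowest detection p of 0.109. *Cxcl14*, a constitutive chemokine of epithelia, had 56.3 to 78.9 over its 2 probes and a lowest detection p of 0.1003. *Ccl2*, the main ligand of *Ccr2* and a neighbour of *Ccl7*, had 69.0 to 96.1 and was detected on 1 silenced and 1 control array at 48 h, with a lowest detection p of 0.0188. At such signals a difference between groups was not detectable.

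**Figure D4:**
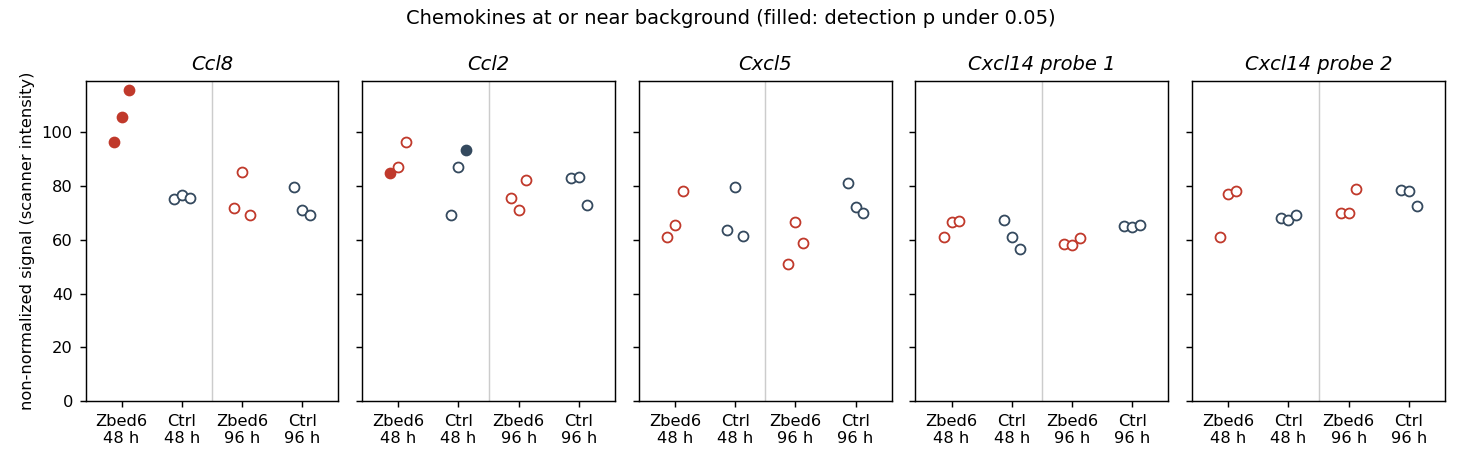
Non-normalized signal (vertical axis, scanner intensity from 0) of *Ccl8*, *Ccl2*, *Cxcl5* and both *Cxcl14* probes per array, in silenced (Zbed6) and control (Ctrl) cells at 48 h and 96 h. Filled points are arrays with a detection p under 0.05, which are the 3 silenced 48 h arrays of *Ccl8* (96.3 to 115.5) and 1 array of each siRNA at 48 h for *Ccl2*.

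In the gene order of GRCm38.p6, *Ccl2*, *Ccl7*, *Ccl11*, *Ccl12* and *Ccl8* follow one another on chromosome 11. Of these 5 neighbours, *Ccl7* and *Ccl11* were detected on all 12 arrays, *Ccl8* and *Ccl2* as given above, and *Ccl12* on none. *Ccl11*, an eosinophil attractant, was higher in silenced cells at 48 h by 1.11 (SE 0.14, limma adjusted p = 0.0044) and gave 0.04 (limma adjusted p = 0.89) at 96 h, with the difference between the days at -1.06 (limma adjusted p = 0.025). In control cells it rose between the days by 0.90 (limma adjusted p = 0.00084). The control arrays at 48 h were dim for *Ccl11*, with a mean of 5.52, and the values 1.11, -1.06 and 0.90 all draw on them. Its lowest signal before normalization over the 12 arrays was 83.7, near background. For *Ccl11*, as for *Cxcl12* and *Ccl7*, the log2 difference of silenced minus control cells was lower at 96 h than at 48 h. The patterns were unlike, as *Ccl11* went from 1.11 to 0.04, while *Cxcl12* went from 0.21 to -0.74 and *Ccl7* from 0.10 to -0.74. Of the other 29 chemokine ligands on the array 3 were kept by the filter, and of these only *Ccl11* passed at 48 h, with *Ccl25* at -0.17 (limma adjusted p = 0.31) and *Ccl9* at -0.17 (limma adjusted p = 0.47). The medians over those 3 were -0.17 at 48 h and 0.03 at 96 h, beside 0.00 over all genes on both days.

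Of the 23 chemokine receptors on the array 2 were kept, *Cxcr4* and *Ccrl2*. *Cxcr4* was detected on all 12 arrays with signals before normalization of 593.8 to 1383. It averaged 9.42 in silenced cells and 9.44 in control cells at 48 h, and 9.51 in silenced cells and 9.98 in control cells at 96 h. It rose with time in control cells by 0.54 (SE 0.12, limma adjusted p = 0.0039), and the 96 h difference between silenced and control cells, -0.47 (SE 0.12, limma adjusted p = 0.052), did not pass. The difference between the days was -0.45 (limma adjusted p = 0.12). *Ccrl2*, which binds chemerin without signalling, gave 0.08 at 48 h and 0.00 at 96 h and passed in neither. The second *Cxcl12* receptor *Ackr3*, the *Cxcl13* receptor *Cxcr5*, the *Cxcl1* and *Cxcl5* receptor *Cxcr2*, and *Ccr2*, *Ccr8* and *Cx3cr1* were detected on no array. Thus *Cxcl12* was the only detected member whose main signalling receptor was also detected.

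Genes of the signalling upstream of inducible chemokines moved in both directions. Of 21 listed NF-kappaB factors and inhibitors 19 were on the array, and *Nfkb1* and *Chuk* were not among them. The paper reported lower *Nfkb1* RNA in silenced cells at the earlier day by qPCR, which could not be read here. Of 18 kept NF-kappaB factors and inhibitors, 1 was higher and 3 were lower in silenced cells at 48 h, with a median of 0.02, where 10.2% of all genes passed. *Ikbkg*, the regulatory subunit of the kinase that releases NF-kappaB, was higher by 0.54 (limma adjusted p = 0.016). *Myd88*, the adaptor of interleukin 1 and Toll-like receptors, was lower by 0.42 (limma adjusted p = 0.021). The inhibitor *Nfkbia* was at -0.36 (limma adjusted p = 0.038), and its family member *Nfkbiz* was at -0.44 (limma adjusted p = 0.0498). At 96 h *Ikbkg* (0.32, limma adjusted p = 0.048) and the subunit *Relb* (0.47, limma adjusted p = 0.045) were higher, none was lower, and the median was 0.05, where 6.83% of all genes passed. Of 14 kept cytokines and receptors that induce chemokines, 1 was higher and 4 were lower at 48 h, against 10.2% of all genes in either direction. *Il6st*, the shared signalling receptor of the interleukin 6 family, was higher by 0.57 (limma adjusted p = 0.023). The macrophage growth factor *Csf1* (-0.68, limma adjusted p = 0.0068), the receptors *Tlr2* (-0.74, limma adjusted p = 0.013) and *Ifngr2* (-0.47, limma adjusted p = 0.040), and *Il18* (-0.52, limma adjusted p = 0.0499) were lower. At 96 h 1 was higher and 2 were lower, against 6.83% of all genes. *Il1b*, detected on 3 silenced arrays and no control array, was at least 1.29-fold higher (limma adjusted p = 0.023), and *Cd14* (-0.56, limma adjusted p = 0.026) and *Csf1* (-0.43, limma adjusted p = 0.049) were lower. The medians of these 14 genes were -0.21 at 48 h and 0.05 at 96 h.

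Of 14 kept enzymes and proteoglycans that process or hold chemokines, 3 were lower in silenced cells at 48 h and none was higher, with a median of -0.22, where 5.61% of all genes were lower. They were *Sdc3*, a heparan sulfate proteoglycan (-0.48, limma adjusted p = 0.022), *Ext1*, which polymerizes heparan sulfate (-0.36, limma adjusted p = 0.038), and *Mmp2*, a protease that cleaves *Cxcl12* (-0.35, limma adjusted p = 0.042). None of the 14 passed at 96 h, where the median was -0.06.

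The patterns of the members over the 12 arrays were not alike. Among pairs of the 6 kept members Pearson's r ran from -0.77, between *Cxcl13* and *Cx3cl1*, to 0.68, between *Cxcl1* and *Ccl7*. The genes outside the list with the highest r over the 12 arrays were *Npr3* and *Rplp0* for *Cxcl12* (0.95 each), *Dhx33* and *Sdhb* for *Cxcl13* (0.95 each) and *Lix1* and *Pgrmc1* for *Cxcl1* (0.93 and 0.92). They were *Zmat1* and *Ctsb* for *Ccl7* (0.92 and 0.88), *1700025G04Rik* and *Cdk2* for *Ccl8* (0.95 each, with *Ccl8* detected on 3 of the arrays) and *Tfap2c* and *Bbs2* for *Cx3cl1* (0.98 and 0.96). The arrays share the structure of 4 groups, so these values describe likeness of pattern over the groups as much as over single arrays.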

How the data were processed

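The deposited table held, per the file headers, 1 non-normalized signal intensity and 1 detection p-value for each probe and array, exported by the scanner software with no background subtraction. The authors also deposited processed values on a log2-like scale, for which the methods name FlexArray and its lumi bundle but no centring; these served as an alternative. All value columns were matched to samples. Intensities were background corrected with normexp from the detection p-values, an offset of 16 was added, and they were quantile normalized and put on the log2 scale (neqc, limma 3.58.1, R 4.3.3). Probes detected on at least 3 of 12 arrays were kept (13095), and each gene was represented by the kept probe with the highest mean (8858 genes).

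Silenced and control cells were compared by limma (lmFit, eBayes) within each day on 6 arrays, and time and the difference between days on all 12, with Benjamini-Hochberg adjustment over all genes and a threshold of 0.05. The p-values rest on the spread between biological replicates, 3 per group, and the number of arrays limits the precision. For each gene eBayes moderates this spread toward that of all genes, and the fits on 12 arrays use a single estimate over the 4 groups. A named gene that passed between a group where it was detected and one where it was on no array was given a lower bound of its fold. Scripts were tested on simulated data. Named were all 9 chemokines, up to 4 genes per related list and comparison past the threshold, the 2 genes most like each kept chemokine, cell type markers, and *Igf2*. For the related receptors and ligands, undetected or unchanged genes were also named for their role, after their values were seen. The members and lists were chosen with earlier results of these data known. The replicate numbers were not used to pair arrays, as same-numbered arrays did not deviate together. Alternatives covered background correction, normalization, offset, filter, processed values, probe choice, arrays in the fit, array weights, a replicate block and leaving out each array.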

Additional observations from a re-analysis of the deposited data

Results flagged for a closer look

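Among the 5 chemokines detected on all 12 arrays, the effect of *Zbed6*-silencing differed between the days for *Cxcl12* and *Ccl7*. This was by a test of that difference, which 4.49% of all genes passed. *Cxcl13* was left out, as its 48 h difference was known. The members were chosen with earlier results of these arrays known, so this is a description. The silencing effect at 96 h minus that at 48 h was -0.96 for *Cxcl12* (limma adjusted p = 0.015) and -0.84 for *Ccl7* (limma adjusted p = 0.039). For both, at the probe used for the gene, silenced arrays lay below control arrays at 96 h and overlapped with them at 48 h. *Cxcl12* probe C had its silenced arrays below at 48 h too. Over all kept probes the difference between the days passed for *Cxcl12* probe A only. Probe B gave -0.78 (limma adjusted p = 0.059) and probe C -0.66 (limma adjusted p = 0.12). The *Ccl7* call was kept in 3 of the 12 fits with 1 array left out and in 5 of the 9 other alternatives. Groups of 3 arrays are too small for a test of single outlying arrays.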

How the results depend on the processing

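At 48 h 907 of 8858 genes passed, against 1468 without background correction, 468 with median scaling, 1397 with all 12 arrays in 1 fit and 250 to 543 with 1 array left out. At 96 h 605 passed, against 1116 without background correction, 1031 with an offset of 50, 366 with no filter on dim probes and 90 to 408 with 1 array left out. For the difference between the days 398 passed, against 770 without background correction, 123 with median scaling, 657 with an offset of 50, 639 with the processed values and 89 to 321 with 1 array left out. Among the 6 kept chemokines, 4 passed at 96 h, against 2 (*Cxcl12* and *Cxcl13*) with the processed values or with no filter on dim probes, and 1 to 3 with 1 array left out. Between the days in silenced cells 4 passed, against 2 (*Ccl7* and *Ccl8*) with only the 6 silenced arrays and 2 to 4 with 1 array left out. For the difference between the days 3 passed, against 1 (*Cxcl12*) with the processed values, and 2 to 3 with 1 array left out. These last 2 counts include *Ccl8*, whose calls the detection filter fixed. With median scaling *Cx3cl1* at 48 h (limma adjusted p = 0.072), *Cxcl1* between the days in silenced cells (0.078) and *Ccl7* for the difference between the days (0.060) did not pass, and neither did this last with no filter on dim probes (0.059). No value of a single chemokine past the threshold changed sign under any of the alternatives run, and the cause of the changed counts was not tested. The processed values had smaller differences, with *Cxcl13* at 96 h at 0.27 in place of 0.97.

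The replicate numbers in the labels were tried as a replicate block, although same-numbered arrays did not deviate together (correlations from -0.22 to 0.17). With the replicate block 222 genes passed at 96 h and 206 for the difference between the days. Of the chemokines, *Cxcl1* at 96 h (limma adjusted p = 0.065) and *Ccl7* for the difference between the days (limma adjusted p = 0.054) were then lost, and no other chemokine call changed. Signals near background limit *Ccl8*, *Ccl2*, *Cxcl5* and *Cxcl14*, and 3 arrays per group limit all comparisons.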
